A study of Mus musculus with 7 samples.

Results

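Developmental homeobox and lineage transcription factors were taken as the genes whose whole symbol is a numbered member of the Hoxa to Hoxd, Pax, Lhx, Tbx, Irx, Dlx, Onecut, Gata, Shox, Neurod, Emx, Otx, Pitx, Msx, Barhl or Nkx families. The rule found 121 of the 27998 genes in the files, and it reads symbols only, although the families were chosen with earlier results of these data known. Of these 121 factors, 46 had no unique molecular identifier (UMI, a tag that counts 1 captured transcript) in any nucleus, 75 had at least 1, and 36 had at least 10.

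Nuclear RNA was counted in single nuclei from the striatum of 7 male C57BL6/J mice. The 3 wild-type mice (WT) and 3 of the 4 heterozygous mice (HttQ175/+) were 14 months old, and HttQ175/+ replicate 1 was 15 months old. HttQ175/+ mice carry 1 copy of a huntingtin knock-in allele with an expanded CAG repeat, a model of Huntington's disease. Each mouse gave 1 library, so the mouse is the replicate, and the replicate numbers only name mice.

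The authors' annotation placed 4524 nuclei in 12 cell types. The neurons studied most here are the striatal output cells, spiny projection neurons (SPNs), in their direct-pathway form (dSPNs, 513 WT and 1296 HttQ175/+ nuclei) and their indirect-pathway form (iSPNs, 333 and 608 nuclei). The dSPN label held against its markers: 5 dSPN markers together stood at 1347 ± 192 CPM (UMIs of a gene scaled to a common total per nucleus, SD, n = 3) in WT dSPNs and 106 ± 53.3 in WT iSPNs. In HttQ175/+ mice they stood at 817 ± 93.6 CPM in dSPNs and 113 ± 58.2 in iSPNs (n = 4). Single mice gave 543941 to 1339365 UMIs from dSPNs and iSPNs together, 2279672 UMIs in all in WT and 4006086 in HttQ175/+ mice, which is 1.76 times as many. Median UMIs per dSPN nucleus were 2753 in WT and 2008 in HttQ175/+ mice. Between libraries, 6 nuclei shared a cell barcode.

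Homeobox factors bind DNA through a homeodomain and set the identity of regions and cell types in the embryo. The Hox genes lie in 4 clusters, are used along the body axis up to the hindbrain, and are normally silent in the forebrain, where Polycomb complexes hold many developmental regulators off. The striatum arises from the ventral forebrain, where Dlx factors specify GABAergic neurons, Nkx2-1 marks the progenitors of many interneurons, and Lhx6 and Lhx8 carry that identity on.

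Most of the silent factors were Hox genes: 24 of the 39 Hox genes had no UMI in any nucleus. Silent too were 8 of 21 NK and NK-like factors, 5 of 15 paired box and related factors, 3 of 6 GATA factors, 2 of 8 LIM homeobox factors, 2 of 13 T-box factors, 1 of 6 Irx factors and 1 of 3 Onecut factors. None of the 6 Dlx and 4 Neurod factors was silent in the 4524 nuclei. In SPNs, 26 of the 121 factors were detected in WT and 56 in HttQ175/+ mice.

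The deeper sampling of HttQ175/+ mice was set equal by computing how many factors would be expected with a UMI at 543941 SPN UMIs per mouse. At that depth 12.2, 13 and 11.4 factors were expected in WT replicates 1 to 3. In HttQ175/+ replicates 1 to 4 the numbers were 28.2, 27.5, 22.1 and 23.4. Every HttQ175/+ mouse was above every WT mouse, while over all genes the 2 genotypes lay close, with 13222 to 13586 genes in WT and 13412 to 13870 in HttQ175/+ mice.

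**Figure D1:**
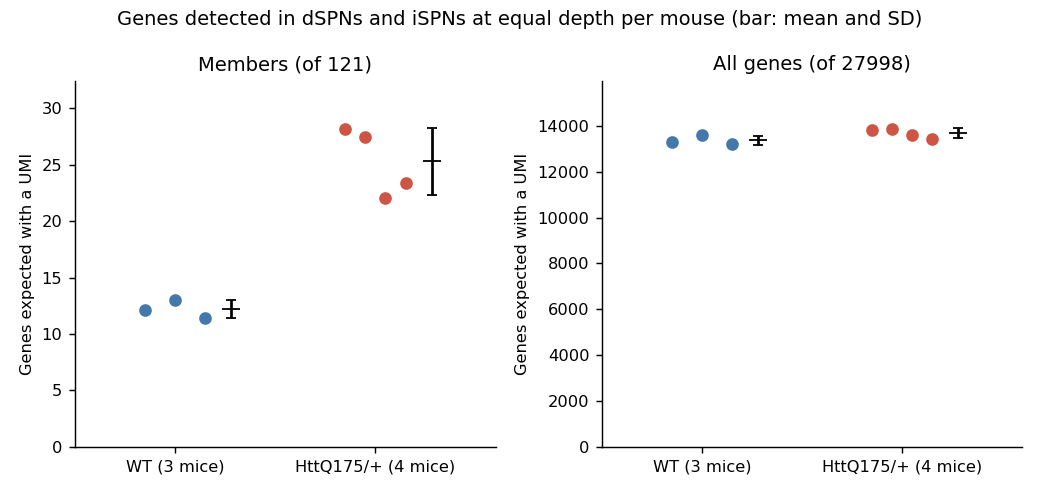
Genes expected with a UMI in dSPNs and iSPNs of each mouse at equal depth (y axis), for the 121 factors on the left and for all 27998 genes on the right. Points are mice and bars give the mean and SD; WT mice lie between 11.4 and 13 factors and HttQ175/+ mice between 22.1 and 28.2.

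Of the 121 factors, 95 had 0 UMIs in WT SPNs. In HttQ175/+ SPNs 36 of these 95 had at least 1 UMI and 10 had at least 10 UMIs, which is 10.5%. Among all 12355 genes with 0 UMIs in WT SPNs, 0.469% reached 10 UMIs in HttQ175/+ mice. The 10 factors were Hoxc4, Hoxc5, Hoxc6, Hoxc8, Hoxc9, Onecut1, Irx5, Nkx2-3, Pax2 and Nkx6-1. In the other direction, 6 factors had UMIs in WT and none in HttQ175/+ SPNs, and none of those 6 had more than 2 UMIs in WT.

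Differences between genotypes were tested with limma across all genes of a type that had enough UMIs, on a log2 scale after adding a CPM pseudocount that equals 2 UMIs, with p-values adjusted by Benjamini-Hochberg. Only 9 of the 121 factors had enough UMIs in any type, and the other 112 are given as UMIs. In dSPNs 6 factors were tested and 3 were called, all higher in HttQ175/+ mice, where 3.97% of all 8790 genes tested were called and 1.37% were called higher. In iSPNs 2 were tested and 1 was called higher, where 2.39% of 5894 genes were called and 0.526% were called higher. In dSPNs and iSPNs summed per mouse, 7 were tested and 5 were called higher, where 6.25% of 9625 genes were called and 2.29% were called higher. Hoxc4, Shox2, Neurod2 and Pax6 had enough UMIs only in HttQ175/+ mice and so could enter the test only if they differed. These counts of calls are therefore no measure of how the factors as a set behaved. The adjusted p-values of these 4 factors below carry the same limit.

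The Hoxc cluster held nearly all Hox UMIs. It lies on chromosome 15 of mm10, and its genes run on the plus strand from Hoxc13 (102921103 to 102928814) to Hoxc4 (103018934 to 103036852). No Hoxc gene had a UMI in any WT SPN, and 6 of the 9 Hoxc genes together had 197 UMIs in HttQ175/+ SPNs. The other clusters stayed near 0: Hoxa had 1 UMI in WT and 9 in HttQ175/+ SPNs, Hoxd 0 and 4, and Hoxb 0 in both.

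Hoxc4, the last gene of the cluster and a factor of the cervical and thoracic body axis, had the most UMIs of the Hox genes. It had 0 UMIs in all 3 WT mice in dSPNs, and 41, 22, 12 and 11 UMIs in HttQ175/+ replicates 1 to 4. These correspond to 45.8, 24.0, 22.8 and 19.1 CPM. Every HttQ175/+ mouse lay above every WT mouse, as in 12.6% of all genes tested, and the 15-month-old mouse, replicate 1, was the highest. Taking 3 UMIs over all WT mice as the floor, the level was at least 14.4-fold higher in HttQ175/+ dSPNs (limma log2 change 2.99 ± 0.42 SE, which depends on the pseudocount, adjusted p = 0.0012). Without replicate 1 the log2 change was 2.65 (limma, adjusted p = 0.0103). In iSPNs Hoxc4 went from 0 UMIs in WT to 8, 3, 3 and 4 UMIs in the HttQ175/+ mice, too few to enter the test. Summed over both types, 104 UMIs against 0 made the level at least 19.7-fold higher (limma log2 change 3.28 ± 0.38, adjusted p = 0.00028).

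Hoxc6, the next most abundant, had 0 UMIs in WT dSPNs and 17, 14, 4 and 7 UMIs in HttQ175/+ dSPNs. Its level of 13.4 ± 3.09 CPM (SD, n = 4) in HttQ175/+ dSPNs did not overlap WT, and it had too few UMIs to be tested. Further along, Hoxc8 had 15 UMIs, Hoxc9 had 11 and Hoxc10 had 3 in HttQ175/+ SPNs. HttQ175/+ replicate 1 gave 10 of the 15 Hoxc8 and 9 of the 11 Hoxc9 UMIs, so these 2 genes rest mostly on that mouse. The start of the cluster, Hoxc11, Hoxc12 and Hoxc13, had none, nor had Hotair, the noncoding RNA transcribed from the other strand there. Hoxc5 had 20 UMIs. Its annotated span covers Hoxc6, Hoxc8 and Hoxc9 and part of Hoxc10 on the same strand, so its UMIs are uncertain.

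**Figure D2:**
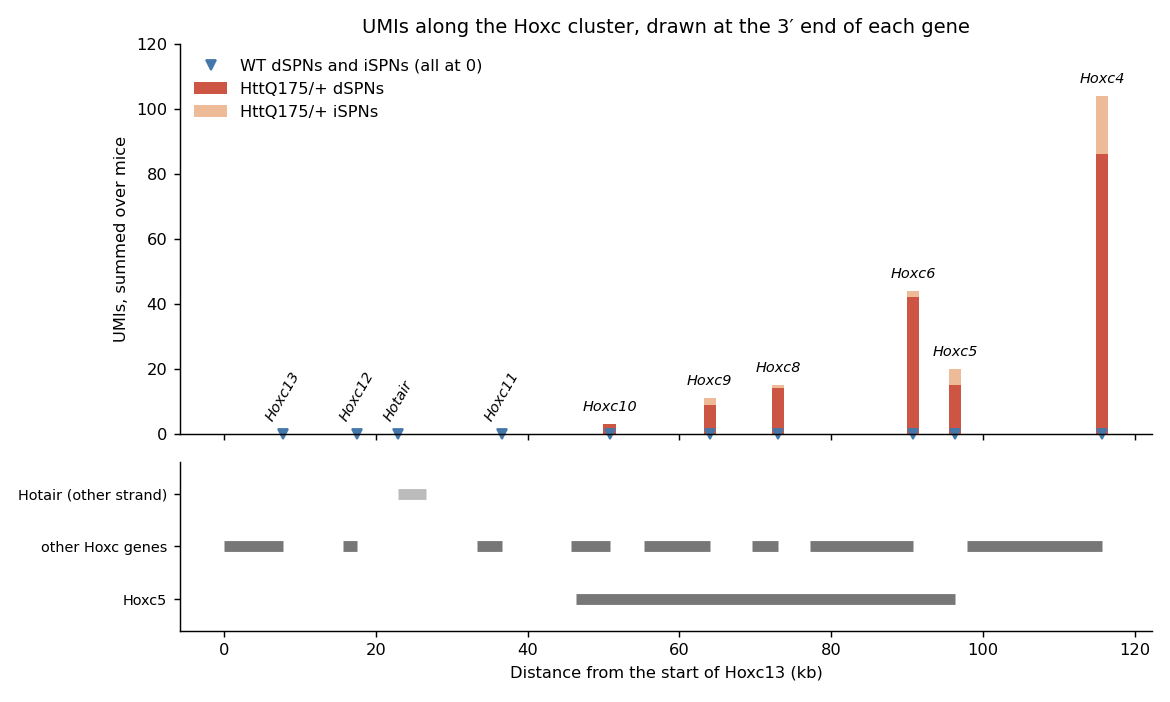
UMIs summed over mice (y axis) for each gene of the Hoxc cluster, at the distance of its 3′ end from the start of Hoxc13 in kb (x axis), stacked for HttQ175/+ dSPNs and iSPNs, with WT as triangles and the gene spans beneath. UMIs lie between Hoxc10 with 3 and Hoxc4 with 104, the genes from Hoxc13 to Hoxc11 have none, and WT is at 0 throughout.

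In HttQ175/+ mice the Hoxc genes had 169 UMIs among 2812859 dSPN UMIs and 28 among 1193227 iSPN UMIs. Hoxc6 had 42 UMIs in dSPNs and 2 in iSPNs, a ratio per UMI sequenced of 8.91 (95% counting interval 2.32 to 76). For Hoxc4 the ratio was 2.03 (1.21 to 3.58). The intervals of Hoxc8 (5.94, 0.904 to 251), Hoxc9 (1.91, 0.395 to 18.2) and Hoxc5 (1.27, 0.44 to 4.48) held 1, and for Shox2 and Neurod2 they did too (0.862, 0.552 to 1.37, and 0.931, 0.6 to 1.47). These intervals cover counting error only. With no filter on low values, the test of the difference between the genotype effects in dSPNs and iSPNs gave -1.11 ± 0.24 log2 for Hoxc6 (limma, adjusted p = 0.55), so the difference did not pass.

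Shox2, a paired-type homeobox factor of the limb, the sinus node of the heart and parts of the spinal cord, had the smallest SD relative to its mean in HttQ175/+ dSPNs among the 3 factors called there. It had 0 UMIs in all 3 WT mice in dSPNs and 19, 20, 11 and 13 UMIs in the HttQ175/+ mice. The 4 HttQ175/+ mice lay between 20.9 and 24.8 CPM, with no overlap. That is at least 10.6-fold higher against the floor of 3 UMIs (limma log2 change 2.78 ± 0.41, adjusted p = 0.0014). In iSPNs, 1 UMI in WT stood against 31 in HttQ175/+ mice, a ratio of 22.4 (95% counting interval 3.73 to 913). The start of Shox2 (chromosome 3, 66971727 to 66981771, minus strand) overlaps the start of Rsrc1 on the other strand, and no source used here says whether counting used strand. Rsrc1, a splicing-related gene, had 126 UMIs in WT and 423 in HttQ175/+ dSPNs (limma log2 change 0.55 ± 0.18, adjusted p = 0.126). In dSPNs and iSPNs together Rsrc1 went from 92.1 ± 7.72 CPM (SD, n = 3) to 147 ± 16.5 CPM (n = 4). That change did not pass (limma log2 change 0.52 ± 0.15, adjusted p = 0.059). Whether Shox2 UMIs include Rsrc1 reads was not tested.

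Neurod2, a basic helix-loop-helix factor of maturing excitatory neurons, had 1, 0 and 1 UMIs in WT dSPNs and 24, 17, 9 and 18 UMIs in HttQ175/+ dSPNs. The CPM were 1.98, 0 and 1.81 in WT and 27.2, 18.3, 19.8 and 32.6 in HttQ175/+ mice, without overlap. The ratio of summed UMIs per UMI sequenced was 17.1 (95% counting interval 4.57 to 144), and the change passed (limma log2 change 2.44 ± 0.40, adjusted p = 0.0033). In iSPNs 1 UMI stood against 31. Its relatives stayed low, with Neurod1 at 0 UMIs in WT and 9 in HttQ175/+ SPNs.

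Onecut1, a cut-homeobox factor of liver, pancreas, retina and spinal cord, had 0 UMIs in every cell type of the WT mice and 76 UMIs in HttQ175/+ mice. In dSPNs the HttQ175/+ mice had 11, 16, 11 and 7 UMIs, at 11.2, 17.7, 23.2 and 11.3 CPM. The level was at least 7.56-fold higher against the floor, and the gene had too few UMIs to be tested. A lncRNA gene, Gm20649, overlaps Onecut1 on the same strand and had 0 UMIs in the files.

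Onecut2, its close relative, was the only one of the 121 factors with a high level in WT SPNs. In iSPNs it stood at 272, 367 and 214 CPM in WT and at 794, 861, 731 and 633 CPM in HttQ175/+ mice, with a wide gap between the groups. The mean went from 284 ± 77.0 (SD, n = 3) to 755 ± 97.2 CPM (n = 4), where 9.16% of all genes tested had all HttQ175/+ mice above all WT mice, and the change passed (limma log2 change 1.29 ± 0.19, adjusted p = 0.0017). In dSPNs WT mice had 509, 591 and 377 CPM and HttQ175/+ mice 776, 827, 669 and 704 CPM. The groups did not overlap there either, but the change did not pass (limma log2 change 0.47 ± 0.16, adjusted p = 0.123). The HttQ175/+ means of the 2 types differed by less than their SD, at 744 ± 71.0 CPM in dSPNs and 755 ± 97.2 CPM in iSPNs, and the WT level was the lower in iSPNs.

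The test of the difference between the 2 types gave 0.81 ± 0.21 log2 for Onecut2, a larger rise in iSPNs, which did not pass (limma, adjusted p = 0.70). None of the 6 factors in that test passed, where 0.0% of 8797 genes were called by limma, and 1 of the 6 had an unadjusted p under 0.05. In dSPNs and iSPNs together Onecut2 rose by 0.74 ± 0.16 log2 (limma, adjusted p = 0.0132). That call was lost without WT replicate 1 (limma, adjusted p = 0.0505) and without WT replicate 3 (limma, adjusted p = 0.0586). Onecut2 (chromosome 18, 64340020 to 64400987) overlapped no other gene in the annotation.

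Pax6, a paired box and homeobox factor of eye and cortical progenitors and of astrocytes, had 1, 0 and 0 UMIs in WT dSPNs and 10, 12, 7 and 8 UMIs in HttQ175/+ dSPNs. In iSPNs it had 1, 1 and 0 UMIs in WT and 5, 7, 2 and 9 UMIs in HttQ175/+ mice. Summed over both types, 3.21, 1.34 and 0 CPM in WT stood against 13.0, 14.2, 11.6 and 21.6 CPM in HttQ175/+ mice, every HttQ175/+ mouse above every WT mouse, as in 14.8% of all genes tested. The change passed there (limma log2 change 2.09 ± 0.41, adjusted p = 0.0085), and the ratio of summed UMIs was 11.4 (95% counting interval 3.71 to 56.7). With WT replicate 3 left out, Pax6 was no longer tested, Onecut2 did not pass, and 3 factors were called in place of 5.

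**Figure D3:**
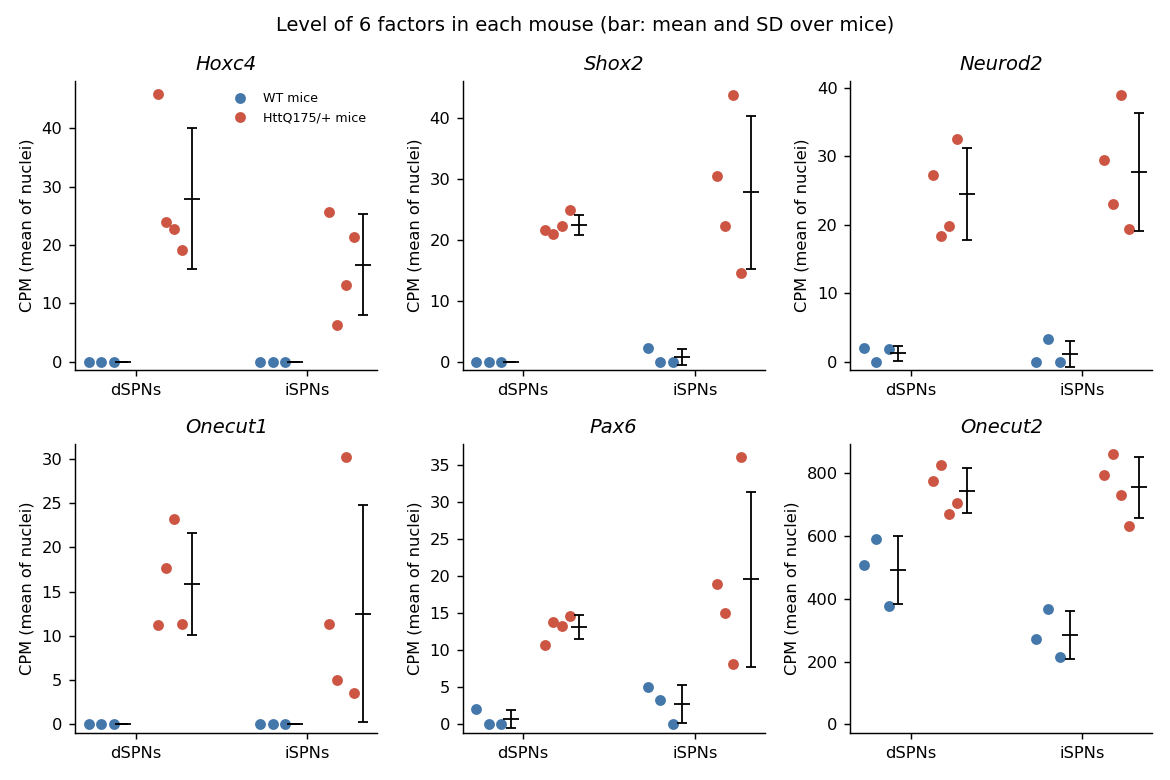
CPM averaged over nuclei (y axis) in each WT and HttQ175/+ mouse for 6 factors in dSPNs and iSPNs, with the mean and SD over mice as a bar. In dSPNs Hoxc4 lies at 0 in WT and at 19.1 to 45.8 CPM in HttQ175/+ mice, and Onecut2 starts from 377 to 591 CPM in WT.

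The RefSeq table of GRCm38.p6 holds a start-site window for 80 of the 121 factors, or 66.1%, so a comparison of promoter composition over the factors is void and none is drawn. The 250 bases upstream of the start are printed for 4 of the factors above that were at or near 0 in WT SPNs and had the most UMIs in HttQ175/+ SPNs outside the Hox genes. Each reads 5′ to 3′ on the gene's own strand, from the most upstream start in the table, with every CG dinucleotide in capitals.
Shox2, chr3:66981772-66982021, minus strand: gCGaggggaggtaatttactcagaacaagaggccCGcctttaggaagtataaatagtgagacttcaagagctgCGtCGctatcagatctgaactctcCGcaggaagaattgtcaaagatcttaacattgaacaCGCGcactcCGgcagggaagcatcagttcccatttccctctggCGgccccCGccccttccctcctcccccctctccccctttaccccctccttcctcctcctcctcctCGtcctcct
Neurod2, chr11:98329646-98329895, minus strand: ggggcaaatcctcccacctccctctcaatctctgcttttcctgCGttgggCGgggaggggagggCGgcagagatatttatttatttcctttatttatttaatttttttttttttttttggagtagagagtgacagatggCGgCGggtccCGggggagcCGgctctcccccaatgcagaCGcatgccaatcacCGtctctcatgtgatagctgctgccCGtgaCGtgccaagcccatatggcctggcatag
Onecut1, chr9:74861671-74861920, plus strand: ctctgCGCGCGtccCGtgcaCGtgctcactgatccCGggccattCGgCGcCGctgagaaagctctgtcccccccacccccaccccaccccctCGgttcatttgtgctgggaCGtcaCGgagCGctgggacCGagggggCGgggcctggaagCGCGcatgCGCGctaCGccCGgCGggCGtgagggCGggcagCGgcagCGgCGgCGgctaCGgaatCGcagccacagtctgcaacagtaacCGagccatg
Pax6, chr2:105668646-105668895, plus strand: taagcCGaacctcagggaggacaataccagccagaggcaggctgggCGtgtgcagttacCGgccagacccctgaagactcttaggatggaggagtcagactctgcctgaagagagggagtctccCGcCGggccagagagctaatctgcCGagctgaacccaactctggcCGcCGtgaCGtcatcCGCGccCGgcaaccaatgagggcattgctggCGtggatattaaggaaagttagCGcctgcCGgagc

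The 4 windows differed in how many CG they hold. Onecut1 had 31, Pax6 had 15, and Shox2 and Neurod2 had 11 each. Of the 27025 genes with a window, 4.93% held at least 31 CG, 27.5% at least 15 and 36.0% at least 11. The Shox2 window lies inside an intron of Rsrc1 on the other strand, the Onecut1 window within Gm20649, and the Pax6 window within the antisense gene Pax6os1. A CG count describes the sequence, and methylation or binding at these starts was not measured.

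Among NK and NK-like factors, Emx2, a factor of the dorsal forebrain and of astrocytes, had 0 UMIs in WT dSPNs and 11, 9, 3 and 5 UMIs in HttQ175/+ dSPNs. Its antisense partner Emx2os moved with it, from 0 to 88 UMIs in dSPNs (limma log2 change 3.28 ± 0.37, adjusted p = 0.00027). Emx2os too had enough UMIs only in HttQ175/+ mice and could enter the test only if it differed, which limits this p-value. Without strand the reads of the pair cannot be told apart. Nkx2-3, a factor of gut and spleen, went from 0 to 16 UMIs in SPNs, and Nkx6-1, of motor neuron progenitors and pancreas, from 0 to 10. Irx5, an Iroquois factor of heart and retina, went from 0 to 20 UMIs, in 3 of 4 HttQ175/+ mice. Pax2, of kidney and the midbrain-hindbrain boundary, went from 0 to 11 UMIs, spread over all 4 HttQ175/+ mice.

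With no filter on low values, 8 of 56 factors measured were called higher in dSPNs, where 0.779% of 17076 genes were. They were Hoxc4, Shox2, Neurod2, Pax6, Onecut1, Hoxc6, Nkx2-3 and Emx2. In iSPNs 4 of 37 were called, Shox2, Neurod2, Hoxc4 and Onecut2, where 0.242% of 15702 genes were called higher. In both types together 10 of 62 were called, where 1.27% of 17661 genes were. None was called lower in any of these 3 fits, but 95 of the 121 factors had 0 UMIs in WT SPNs and could not fall. The lack of lower calls is therefore not read as a result.

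The Dlx factors, which specify GABAergic neurons of the ventral forebrain and are kept in SPNs, did not follow this pattern in those cells. In astrocytes Dlx6 had 1, 0 and 0 UMIs in WT and 2, 9, 3 and 5 UMIs in HttQ175/+ mice. With no filter on low values that change did not pass (limma log2 change 1.10 ± 0.46, adjusted p = 0.51). Dlx6 had 45.5, 73.0 and 46.8 CPM in WT dSPNs and 37.7, 38.9, 49.3 and 40.6 CPM in HttQ175/+ dSPNs. The groups overlapped, and the change did not pass (limma log2 change -0.48 ± 0.22, adjusted p = 0.27). Dlx5 stood at 23.5 ± 8.45 CPM (SD, n = 3) in WT and 19.6 ± 3.78 CPM (n = 4) in HttQ175/+ dSPNs (limma log2 change -0.31 ± 0.30, adjusted p = 0.655). Dlx1 had 6 SPN UMIs in each genotype, and the LIM factor Lhx2 had 5 in WT and 8 in HttQ175/+ mice. Dlx6os1, the antisense RNA over Dlx6, had 73.2 ± 3.47 CPM in WT SPNs of both types, against 51.4 ± 8.70 CPM in HttQ175/+ ones, and fell (limma log2 change -0.64 ± 0.17, adjusted p = 0.0465). Without strand Dlx6 and Dlx6os1 cannot be told apart where they overlap.

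Hoxc4 had its 86 dSPN UMIs in 71 of 1296 HttQ175/+ nuclei, with at most 3 in 1 nucleus, and Shox2 its 63 UMIs in 59 nuclei with at most 2. At so few UMIs per nucleus most would fall in different nuclei anyway. How many nuclei express these 2 factors therefore cannot be read from this spread. The share of dSPN nuclei with a Hoxc4 UMI was 5.48% in HttQ175/+ mice (exact binomial 95% interval 4.3 to 6.86, counting error only) and ranged from 3.29% to 8.99% over the 4 mice. In WT it was 0 of 513, which allows up to 0.585% at 3 nuclei. Nuclei of a mouse are not replicates, so these limits do not cover the spread between mice. With each nucleus set to 1100 UMIs the HttQ175/+ share was 2.88%, and for Shox2 2.35% in dSPNs and 2.78% in iSPNs. Onecut2 had a UMI in 29.9% of WT and 51.5% of HttQ175/+ SPN nuclei at that depth.

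Free RNA in droplets gives UMIs in nuclei that do not express a gene, so the same shares were read in glia. At 1100 UMIs per nucleus Hoxc4 had a UMI in 1.39% of HttQ175/+ oligodendrocytes and 1.32% of astrocytes, about the 1.45% of iSPNs and below the 2.88% of dSPNs. Median depths were 2167 UMIs in HttQ175/+ oligodendrocytes and 2008 in dSPNs. Shox2 had a UMI in 0.968% of oligodendrocytes and 1.59% of astrocytes, and Onecut2 in 28.6% of oligodendrocytes in HttQ175/+ and 15.0% in WT mice.

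Summed per type, Hoxc4 in HttQ175/+ oligodendrocytes reached 0.548 of its dSPN CPM, Shox2 0.481, Neurod2 0.545, Onecut1 0.449 and Onecut2 0.596. Emx2 reached 0.722, and Pax6 was as high in oligodendrocytes as in dSPNs (1.00). Neurod2 was as high in HttQ175/+ Sst interneurons as in dSPNs (1.04). A list of 5 SPN markers, among them Ppp1r1b and Pde10a, reached 0.641 of their dSPN level in the same oligodendrocytes, and 0.43 in WT. Hoxc6 was lower, at 0.241. In WT oligodendrocytes and astrocytes, Hoxc4, Shox2 and Onecut1 had 0 UMIs. In each of the 4 HttQ175/+ mice Hoxc4, Shox2, Neurod2 and Onecut2 were higher in dSPNs than in oligodendrocytes, as were Onecut1, Pax6 and Emx2 in 3 of the 4. How much of the glial UMIs is free RNA was not tested.

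**Figure D4:**
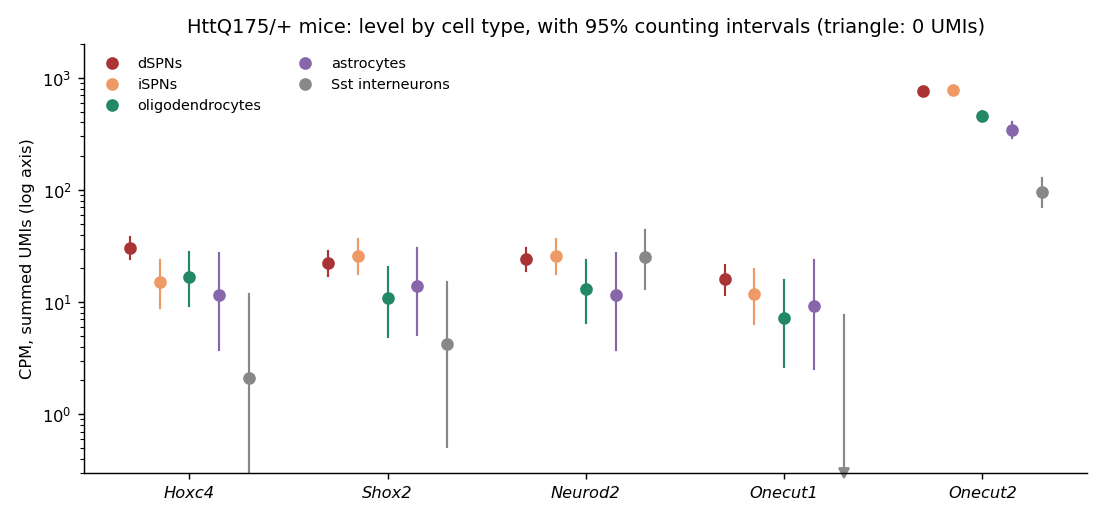
CPM from summed UMIs (log y axis) of 5 factors in 5 cell types of the HttQ175/+ mice, with 95% counting intervals; a triangle marks 0 UMIs. The oligodendrocyte points lie at 0.449 to 0.596 of the dSPN points for these 5 factors.

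Across the 15 factors with at most 3 UMIs in WT and at least 10 in HttQ175/+ SPNs, a list chosen on these values, the gap between genotypes is set by the choice and is not read. Within HttQ175/+ mice, 338 of 1296 dSPN nuclei had at least 1 such UMI, or 31.9%, 22.6%, 28.2% and 23.0% by mouse. At least 2 of the 15 factors occurred in 64 of these nuclei. At least 1 such UMI was also in 123 of 608 iSPN nuclei, 116 of 347 oligodendrocytes and 67 of 198 astrocytes of HttQ175/+ mice. In WT mice it was in 42 of 121 oligodendrocytes and 30 of 102 astrocytes. Nkx6-2 gave 51 of the 55 such UMIs in WT oligodendrocytes and 85 of the 152 in HttQ175/+ ones. In WT astrocytes Pax6 gave 24 and Emx2 gave 8 of the 36. The glial shares thus rest largely on factors present in WT glia, and the dSPN share is not compared with them. The list holds Nkx6-2, an oligodendrocyte factor with 2 UMIs in WT and 11 in HttQ175/+ SPNs, 9 of them from replicate 2.

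Marker lists of other cells were read in the same dSPNs. The 8 markers of cortical excitatory neurons, which express Neurod2, summed to 331 to 393 CPM in WT and 354 to 411 CPM in HttQ175/+ mice, with overlap. Their defining genes were near 0: Slc17a7 had 4 UMIs in WT and 1 in HttQ175/+ dSPNs, Tbr1 had 1 and 3, and Slc30a3 and Fezf2 had none. The 5 markers of neuroblasts and progenitors summed to 59.5 to 72.4 CPM in WT and 104 to 156 CPM in HttQ175/+ dSPNs, without overlap. Nearly all of that was Dcx (40 and 153 UMIs) and Sox11 (43 and 169), while Top2a had 0 and 1 and Igfbpl1 0 and 1. The 5 SPN markers summed to 8295 ± 255 CPM in WT and 3597 ± 201 CPM in HttQ175/+ dSPNs. The part of these shifts in the factors' rises was not tested.

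Outside SPNs, several factors were enriched in 1 or a few cell types. Lhx6, which directs interneurons born in the medial ganglionic eminence, had 121 UMIs in Sst interneurons, 35.7 times its CPM in all other nuclei. Its CPM in Sst interneurons were 262, 120 and 205 in WT and 61.7, 106, 148 and 392 in HttQ175/+ mice. The groups overlapped, where 4.03% of genes tested had every HttQ175/+ mouse above every WT mouse, and the change did not pass (limma log2 change -0.36 ± 0.43, adjusted p = 0.87). Lhx6 was the only factor tested in Sst interneurons, where 0.0% of 2233 genes were called by limma. It was not called with voom weights either, and its unadjusted p was not under 0.05. With no filter, 0 of 30 factors were called, where 0.00674% of 14841 genes were called higher. Dlx1, Dlx2, Lhx8 and Neurod6 were also enriched in Sst interneurons, and Neurod6 had 8 UMIs there in WT and 2 in HttQ175/+ mice.

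Nkx2-1, the upstream factor of the same lineage, had 63 UMIs in Pnoc/Pvalb interneurons, at 228 CPM in WT (95% counting interval 150 to 331) and 190 CPM in HttQ175/+ mice (133 to 263). Lhx8, which maintains cholinergic neurons, was highest in Chat interneurons, at 326 CPM in WT (120 to 709, from 6 nuclei) and 230 CPM in HttQ175/+ mice (167 to 308, from 67 nuclei). Dlx1 reached 75.9 and 79.0 CPM in Pnoc/Pvalb interneurons of WT and HttQ175/+ mice. Intervals of the 2 genotypes overlapped for all 3 factors.

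Astrocytes held Pax6, Lhx2, Emx2, Msx1 and Otx1. Pax6 had 167, 194 and 124 CPM in WT astrocytes and 75.2, 43.8, 74.1 and 88.8 CPM in HttQ175/+ astrocytes. Here every HttQ175/+ mouse was below every WT mouse, opposite in direction to SPNs. How many of all genes lay so in astrocytes was not counted. With no filter on low values the change of Pax6 was -0.99 ± 0.39 log2 and did not pass (limma, adjusted p = 0.48). Emx2 stood at 41.7 CPM (18.0 to 82.2) in WT and 48.9 CPM (30.2 to 74.7) in HttQ175/+ astrocytes. The one factor tested in astrocytes, Onecut2, did not pass (limma log2 change 1.80 ± 0.53, adjusted p = 0.166), where 0.0% of 1858 genes were called. It was not called with voom weights either, and its unadjusted p was under 0.05. Its HttQ175/+ mice all lay above the WT mice, as in 6.4% of the genes tested. The log2 change was 1.01 without WT replicate 2, the mouse at 0 CPM, and 2.52 without WT replicate 3.

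Oligodendrocytes held Nkx6-2, Nkx2-2 and Nkx2-9, factors of the oligodendrocyte lineage and the ventral neural tube, and Tbx6. Nkx6-2 had 222, 201 and 214 CPM in WT and 106, 145, 168 and 98.4 CPM in HttQ175/+ mice. All HttQ175/+ mice were lower, a pattern that was not counted over all genes. The change did not pass (limma log2 change -0.77 ± 0.29, adjusted p = 0.235). Nkx6-2 overlaps Inpp5a on the other strand. Onecut2 in oligodendrocytes went from 202 ± 61.3 CPM (SD, n = 3) to 392 ± 40.5 CPM (n = 4), with every HttQ175/+ mouse above every WT mouse as in 6.98% of genes tested, and did not pass (limma log2 change 0.85 ± 0.28, adjusted p = 0.178). Of the 2 factors tested there neither was called by limma or with voom weights, where 0.687% of 3641 genes were called by limma and 0.0549% were called higher, although both had an unadjusted p under 0.05. Endothelial cells held Gata2, the endothelial and blood GATA factor, at 277 CPM in WT (158 to 450) and 134 CPM in HttQ175/+ mice (84.2 to 204), with Tbx1, Tbx2 and Tbx3.

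**Figure D5:**
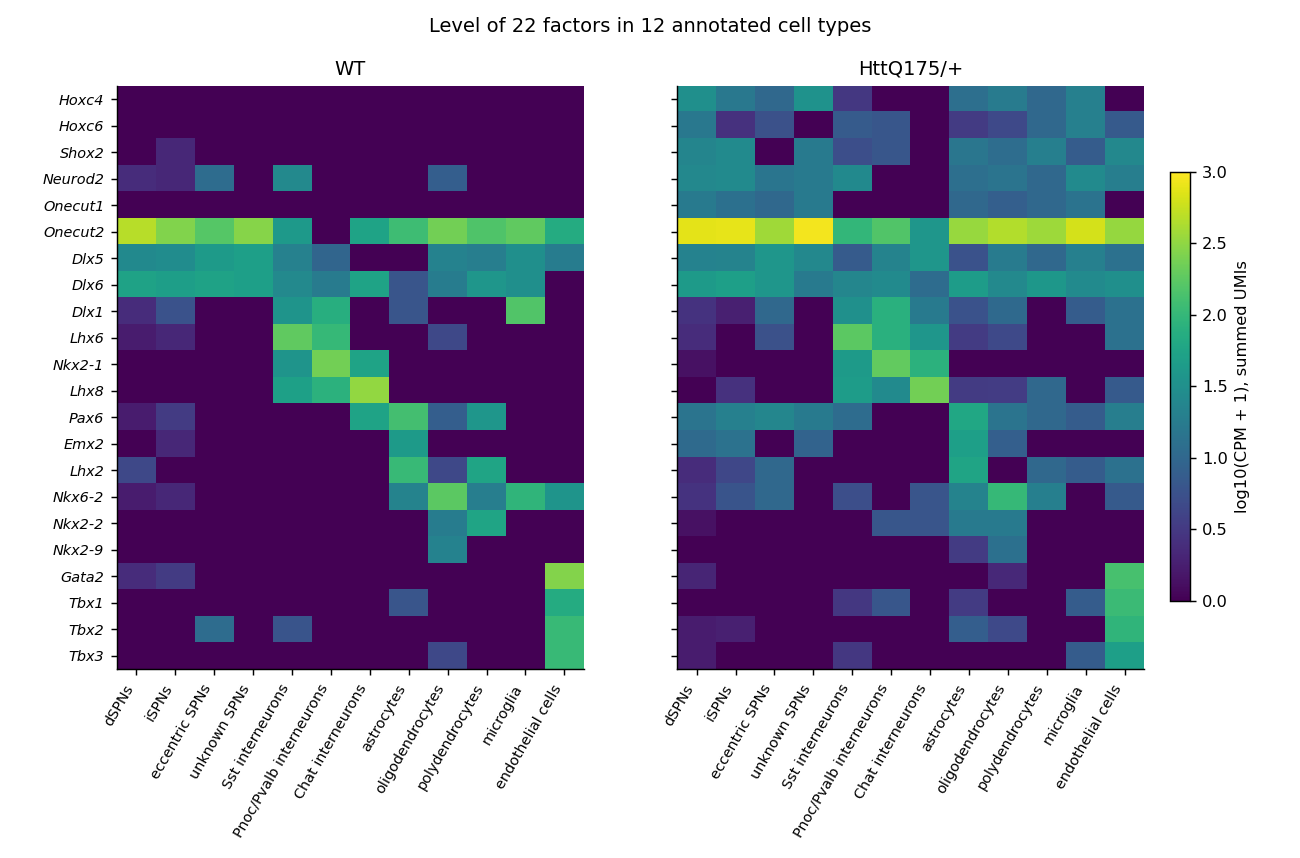
Level of 22 factors (rows) in the 12 annotated cell types (columns) as log10 of CPM plus 1 from summed UMIs, in WT on the left and HttQ175/+ mice on the right. Lhx6, Nkx2-1 and Lhx8 are highest in interneurons, Pax6 in astrocytes, Nkx6-2 in oligodendrocytes and Gata2 in endothelial cells of both genotypes, while the Hoxc4, Shox2 and Onecut1 rows have UMIs only in HttQ175/+ mice, except 1 Shox2 UMI in WT iSPNs.

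Of 86 other developmental regulators outside the named families, 8 had enough UMIs in dSPNs and iSPNs together and 1 was called, lower, where 6.25% of all genes were called either way. That was Meis2, a homeobox cofactor kept in SPNs, at 1142 ± 78.7 CPM (SD, n = 3) in WT and 884 ± 138 CPM (n = 4) in HttQ175/+ mice (limma log2 change -0.52 ± 0.14, adjusted p = 0.0386). The median log2 change of the 8 was 0.05, beside 0.00 over all genes. Of 72 listed genes with at most 3 UMIs in WT SPNs, 4 had at least 10 in HttQ175/+ SPNs: Lmx1b went from 0 to 29 UMIs, Wt1 from 0 to 23, Pou4f1 from 1 to 19 and Nr2f2 from 2 to 17. These 4 were too sparse for the test. Among all genes with 0 UMIs in WT SPNs 0.469% reached 10, but the share of all genes at the limit of 3 was not counted. HttQ175/+ SPNs also gave 1.76 times as many UMIs as WT SPNs.

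Polycomb complexes keep such genes silent, and of 35 genes of the Polycomb complexes and H3K27 demethylases 33 were tested in dSPNs and iSPNs together. Of these, 3 were called higher and 1 lower, with a median log2 change of -0.03. Over all 9625 genes tested there, 6.25% were called and 2.29% were called higher. Cbx8, a chromodomain subunit of Polycomb repressive complex 1, rose from 5.86 ± 3.36 to 35.1 ± 8.98 CPM (limma log2 change 2.11 ± 0.32, adjusted p = 0.0016). Sfmbt2, an MBT-domain protein of a Polycomb-like complex, went from 1 to 192 UMIs (limma, adjusted p = 6.19e-06). It had enough UMIs only in HttQ175/+ mice, so it could enter the test only if it differed. Its adjusted p-value and its place among the 3 called higher carry that limit. Ezh2, a methyltransferase of Polycomb repressive complex 2, fell from 49.8 ± 9.15 to 31.0 ± 4.40 CPM (limma log2 change -0.77 ± 0.20, adjusted p = 0.0335), while 29 of the 33 did not pass. Whether these changes have a part in the factors' rises was not tested.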

How the data were processed

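Single-nucleus 3' libraries (Chromium, version 3 chemistry) of 3 WT and 4 HttQ175/+ mice were processed by the authors with Cell Ranger 3.0.2 and Seurat on mm10, per the submitters' processing notes. The deposited values are natural logs of 1 plus UMIs per 10000 UMIs of a nucleus, per the file values; whole UMIs were recovered from them (100% of values above 0 within 0.02). The other deposited table, with cell types, libraries and other columns, is the authors' annotation. No source used here gives the filters on nuclei, doublet removal or strand use.

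CPM were averaged over the nuclei of a mouse and type, scaled by trimmed means of M values and tested with limma 3.58.1 (trend, R 4.3.3) on a log2 scale after adding to CPM what 2 UMIs are worth in the median mouse, a pseudocount that shrinks folds of low genes. Genes needed at least 15 UMIs in all and 10 at the median depth in 3 mice. Printed CPM are unscaled. Types were tested with at least 10 nuclei in 3 mice per genotype. The fit was tested on simulated data. Factors and lists were chosen with earlier results of these data known. Named were all factors called, tested, or with at least 10 UMIs in SPNs, and in other types those with at least 10 UMIs and 5 times the CPM of the other nuclei; of the other lists, up to 4 genes that passed. Coordinates are from GENCODE vM21, promoter windows from RefSeq GRCm38.p6. Exact 95% counting intervals (scipy 1.17.1) cover counting error only. Nothing in the labels pairs mice across genotypes. The 3' reads do not cover the CAG repeat, so Htt was not used to check genotypes. A few genes of the lists are not reported here by name.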

Additional observations from a re-analysis of the deposited data

Results flagged for a closer look

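Among 19 groups of 4 HttQ175/+ mice examined, 1 held a mouse far from the others: Hoxc4 in dSPNs and iSPNs together was at 40.4 CPM in HttQ175/+ replicate 1 and at 18.0, 19.5 and 19.9 CPM in replicates 2 to 4. Chance alone flags about 1 in 20 such groups. Replicate 1 is also the 15-month-old mouse, so age and this mouse cannot be told apart. Without it the log2 change of Hoxc4 in these cells was 2.95 (limma, adjusted p = 0.0017).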

How the results depend on the processing

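The number of factors called depended most on the filter on low values. With no filter it went to 8 in dSPNs, 4 in iSPNs and 10 in both together; asking for enough UMIs in 5 mice left 0 in dSPNs and 1 in both together, since factors at 0 in WT can no longer enter. Leaving out 1 mouse at a time gave 2 to 3 calls in dSPNs, 1 in iSPNs, 3 to 6 in both together (3 without WT replicate 3) and 0 in Sst interneurons, astrocytes, oligodendrocytes and the comparison of dSPNs with iSPNs. Without HttQ175/+ replicate 1 or 2 or WT replicate 3, Neurod2 in dSPNs and Pax6 in both together had too few UMIs to be tested. Hoxc4 and Shox2 stayed called in dSPNs under every alternative in which they could be tested, which leaves out the filter in 5 mice. With the main filter they enter only through their HttQ175/+ mice, so staying called is no separate support for their rise. Onecut2 passed in dSPNs without the trimmed-mean scaling (0.61, limma, adjusted p = 0.0448). In both together it was 0.77 without WT replicate 1 and 0.57 without WT replicate 3, where it did not pass. In the comparison of dSPNs with iSPNs, where no factor passed, signs turned for Shox2 (-0.16 with a pseudocount of 0.5 UMI, -0.0186 without WT replicate 2, -0.0015 without WT replicate 3, -0.001 without HttQ175/+ replicate 1, -0.16 without HttQ175/+ replicate 3, and up to 0.29 without other mice), Dlx5 (-0.50 without WT replicate 2, up to 0.78) and Neurod2 (-0.0328 without HttQ175/+ replicate 3, up to 0.49); the cause was not tested. Without rarefaction the ratio of factors detected, HttQ175/+ over WT, was 2.16 in place of 2.07. Differences in the share of SPN nuclei with a UMI were larger without thinning for Hoxc4 (4.52 against 2.42 percentage points), Shox2 (4.50 against 2.46), Neurod2 (4.17 against 2.37) and Pax6 (2.48 against 1.41), and smaller for Onecut2 (18.0 against 21.6). Most factors lie near the limit of 3 UMIs, so an absence in WT means not detectable at this depth.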
